A study of Mus musculus with 207 samples.

Results

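Pancreatic beta cells of young mice numbered 55 to 86 were compared with those numbered 87 to 138, gene by gene. The first stretch holds 32 cells and the second 52, so 84 of the 207 cells in the series were described. The boundaries were chosen by measured values: earlier analysis of the same table had split the cells where technical measures shifted along the cell numbers, and these neighbouring stretches had stood out as alike in mitochondrial rRNA and tRNA but unlike in stimulus and dissociation response genes, among them Fos, Jun, Egr1 and Btg2. Every difference below is therefore a description of these cells, without a test.

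The study captured single islet cells of male mice aged 3 months (138 cells, labelled Young) or 26 months (69 cells, labelled Old) on a Fluidigm C1 microfluidic chip, and full-length cDNA was amplified with SMARTer chemistry and sequenced. All cells of both stretches carry the same labels: pancreatic islets, Young, 3 months, male. No genotype, strain, treatment, animal, chip or sequencing run is named, so each stretch counts as 1 sample, and animal, capture and library run cannot be told apart between them. Each cell is labelled a beta cell, and the insulin genes were present in every one.

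Beta cells make, store and release insulin. Immediate early genes such as Fos, Jun and Egr1 are transcribed within minutes of a stimulus without new protein synthesis, and in beta cells they respond to glucose, calcium and cAMP. The heat-shock response is a separate programme, in which misfolded protein in the cytosol releases the factor HSF1 to switch on chaperones. Both programmes are also known to be set off when tissue is digested into single cells.

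Values are in TPM, which divides by transcript length and brings each cell to the same sum. The unit keeps no read depth, so the precision of a single value is unknown. TPM of 1 or above counted as detection. Detected genes ranged from 3234 to 5635 with a median of 4226 in cells 55 to 86, and from 3647 to 6654 with a median of 5104.5 in cells 87 to 138. The median share of TPM in Ins1 and Ins2 was 59.3% in the first stretch and 53.2% in the second, and mitochondrial rRNA and tRNA took 0.913% and 1.31%. The boundaries were sharp for some measures and not for others. Cell 54, just outside, had 1992 detected genes and cell 55 had 4511, while the summed TPM of Hspa1a and Hspa1b was 0 in cell 54, 19.6 in cell 55, and 0 in both cell 86 and cell 87. Jun was at 74.8 TPM in cell 86 and 12.4 TPM in cell 87, and at 22.1 TPM in cell 138 and 0.388 TPM in the old cell 139.

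The main measure was the log2 ratio of mean TPM + 1 in cells 55 to 86 over cells 87 to 138, which understates the difference of low genes. Over the 4861 genes with a mean of 10 TPM or above in either stretch, the median log2 ratio was -0.20. Of these genes 592 (12.2%) were higher by 2-fold or more and 829 (17.1%) lower by as much in cells 55 to 86. When the ratios were centred on the median gene the calls split the other way, with 56.2% of them higher against 41.7% before. At a mean of 1 TPM or above, the limit used for members of gene lists, 1509 of 12026 genes (12.5%) were higher and 2487 (20.7%) lower. The share of cells in which a gene was detected was lower in cells 55 to 86 for 3638 of the 4861 genes and higher for 976. Of the 592 higher genes, 459 owed more than 33.3% of the TPM summed over cells 55 to 86 to 1 cell, so most of these ratios rest on single cells. Among the 829 lower genes, 124 owed that much of the TPM of cells 87 to 138 to 1 cell. The table was earlier split into 8 stretches of cells, 4 of each age, and the mean in cells 55 to 86 was the highest of the 8 for 605 (12.4%) of the 4861 genes. Among them were 332 of the 592 higher genes, which were selected as high in that stretch.

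The inducible cytosolic chaperones had the highest log2 ratios of all named genes. Hspa1a and Hspa1b encode the stress-inducible members of the heat-shock protein family that binds unfolded protein. They are near-identical neighbours, and reads can be shared between them, so their sum is firmer than either value. The sum ran from 0 through a median of 119 to 289 TPM over the 32 cells, and from 0 through a median of 0 to 1.19 TPM over the 52. Hspa1a was detected in 87.5% of cells 55 to 86 (28 of 32, 95% Clopper-Pearson interval 71.0 to 96.5%) and in 0 of cells 87 to 138, where the limit of 3 counts allows a share of up to 5.77%; interval and limit cover counting error only. Its mean was 61.9 ± 58.2 TPM (SD between cells) in the first stretch and 0.0182 ± 0.107 TPM in the second. Hspa1b was detected in 78.1% and 1.92% of cells. With the second stretch near 0, the log2 ratio of Hspa1a, 5.95, follows the TPM added to both means and was 2.84 when 10 and 9.04 when 0.1 was added.

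Chaperone partners followed. Dnajb1, a co-chaperone that delivers unfolded protein to that family, had a median of 69.5 TPM (range 0 to 470) in cells 55 to 86 and of 0 (range 0 to 68.4) in cells 87 to 138, with a log2 ratio of 4.76. Hsph1, which exchanges its nucleotide, had a median of 95.9 TPM (0 to 575) against 2.78 TPM (0 to 78.2), a log2 ratio of 3.41. The ranges of both genes overlapped, but 30 and 31 of the 32 cells lay above the median of the other stretch. Dnaja1, another co-chaperone, was detected in nearly every cell of both stretches and had medians of 95.9 and 19.9 TPM, a log2 ratio of 2.51. Of 28 measured genes of the chaperone list, 13 were at least 2-fold higher and 1 lower, beside 12.5% and 20.7% of all genes at that level. Their median log2 ratio was 0.86 against -0.21 for all genes. The stretches were chosen on stimulus and dissociation response genes, so nothing is read from this distance to all genes.

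**Figure D1:**
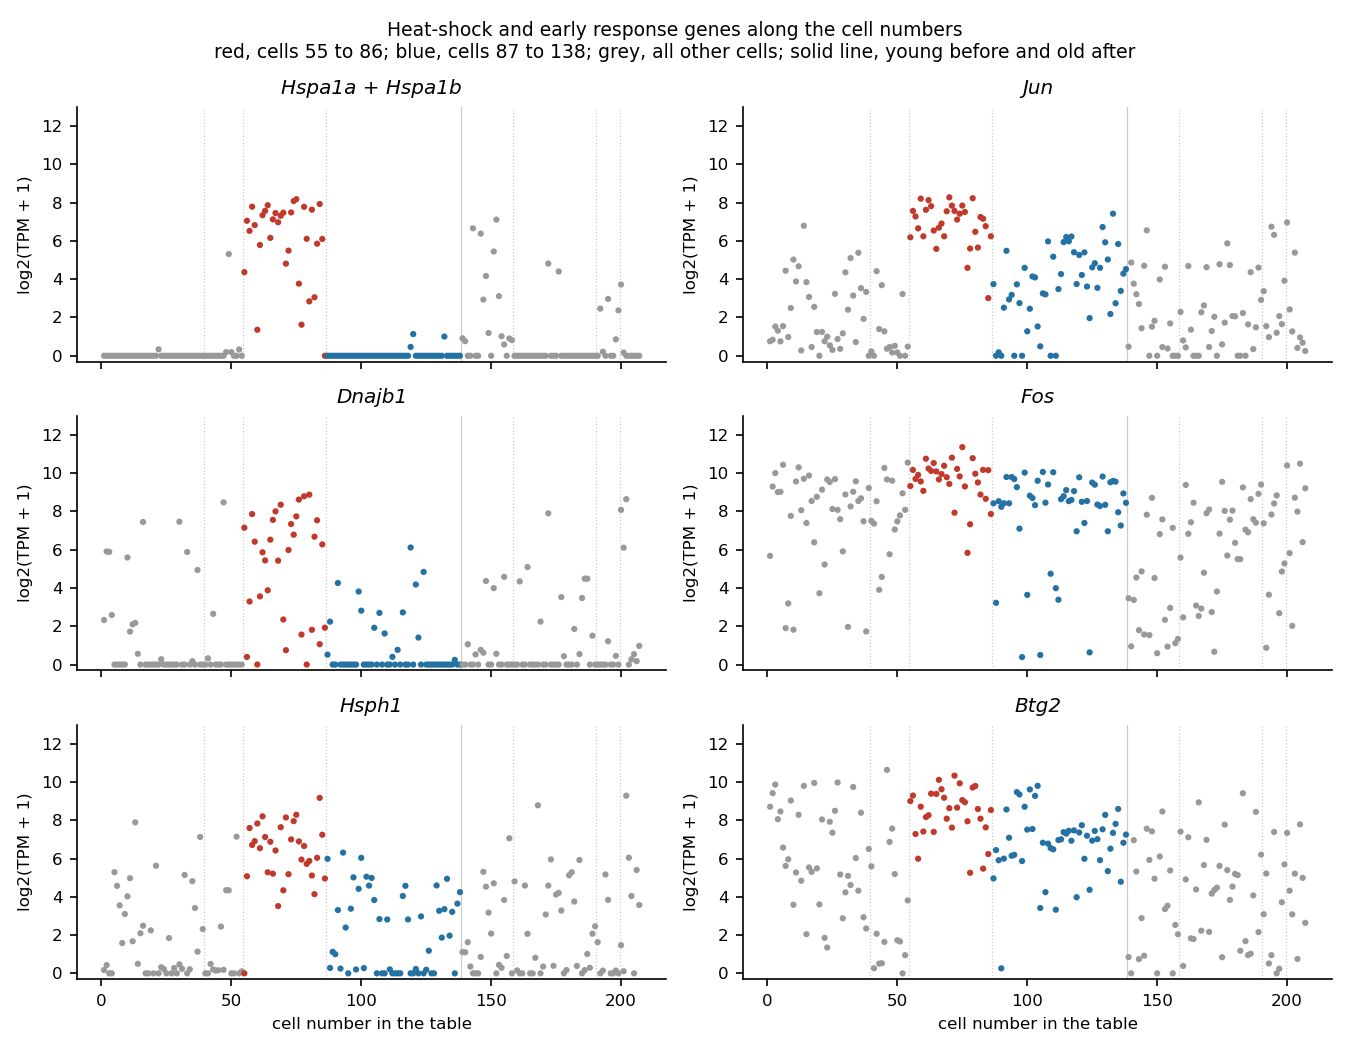
Each point is 1 of the 207 cells, placed by its number in the table (x axis), with log2(TPM + 1) of the named gene on the y axis. Red points are cells 55 to 86, blue points cells 87 to 138 and grey points all others; dotted lines mark the 8 stretches and the solid line the change from young to old. Hspa1a and Hspa1b were detected in most red cells, with a median sum of 119 TPM, and lay at or near 0 in the blue ones.

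Hspa8, a constitutive chaperone (1368 and 526 TPM, log2 ratio 1.38), and Hsp90aa1 (324 and 153 TPM, 1.07) were also at least 2-fold higher. Both were abundant in every cell and were named here after their values had been seen. Without cells 72, 75 and 112, which held transcripts of other cell types, their ratios were 0.94 and 0.97. The higher chaperones were not the whole list. Hsbp1, which binds HSF1, had means of 158 and 136 TPM (0.22). Chordc1, a co-chaperone of the HSP90 family, had means of 16.9 and 15.6 TPM (0.11), and Hspa2, the testis-rich family member, 12.8 and 21.4 TPM (-0.70). Hsf1 itself was low, at 3.34 and 4.86 TPM.

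Heat-shock transcripts were spread over the stretch and not confined to a few of its cells. Counting Hspa1a, Hspa1b, Dnajb1 and Hsph1, a set chosen after their values had been seen, 20 of the 32 cells had all 4 detected, 8 had 3, 4 had 2 and none had fewer. Among the 52 cells the most was 2, seen in 6 cells, with 31 cells at 1 and 15 at 0. In the other 6 stretches all 4 were detected in 1 of the old cells 139 to 158 and in 1 of the old cells 191 to 199. Hspa1a was detected in 25.0% of the old cells 139 to 158 at a mean of 14.8 TPM. In the old cells 200 to 207, Dnajb1 and Hsph1 had means of 92.4 and 94.7 TPM but medians of 0.711 and 13.2 TPM, so a few of these 8 cells held most of both transcripts.

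The promoters of these genes are shown because the chaperones that differed most are known targets of HSF1, whose binding element is built of inverted nGAAn units. Sequences are from RefSeq (GRCm38.p6), the 250 bases before the annotated start site on the gene's own strand, 5′ to 3′, with capitals marking a GAANNTTC or TTCNNGAA match. Hspa1a lies at chr17:34972157-34972406, Hspa1b at chr17:34959239-34959488 and Hsph1 at chr5:149636337-149636586, all on the minus strand.
Hspa1a: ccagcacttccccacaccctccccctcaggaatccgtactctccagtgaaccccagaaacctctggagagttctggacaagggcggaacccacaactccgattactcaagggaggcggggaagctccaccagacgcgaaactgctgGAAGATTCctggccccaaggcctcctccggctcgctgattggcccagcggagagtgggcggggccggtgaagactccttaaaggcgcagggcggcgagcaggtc
Hspa1b: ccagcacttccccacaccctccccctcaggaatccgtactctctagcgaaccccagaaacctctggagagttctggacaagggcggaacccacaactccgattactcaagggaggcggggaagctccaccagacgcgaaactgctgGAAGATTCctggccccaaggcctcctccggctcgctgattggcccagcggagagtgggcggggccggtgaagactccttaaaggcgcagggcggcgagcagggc
Hsph1: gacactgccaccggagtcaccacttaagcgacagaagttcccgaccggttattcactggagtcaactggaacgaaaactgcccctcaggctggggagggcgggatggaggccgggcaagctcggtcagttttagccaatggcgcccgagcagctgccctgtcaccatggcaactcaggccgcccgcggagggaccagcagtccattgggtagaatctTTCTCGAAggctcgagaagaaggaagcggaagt
The Hspa1a and Hspa1b windows differed at 3 of 250 bases, and the match of both begins 104 bases before the start site. The match shown for Hsph1, TTCTCGAA, begins 33 bases before it. Of the 11 chaperone genes at 10 TPM or above that were at least 2-fold higher, 8 were in the promoter table. GAANNTTC, which reads the same on both strands, occurred within 250 bases before to 50 after a start in 6 of these 8 (Dnaja1, Dnaja4, Hspa1a, Hspa1b, Hspb8 and Hsph1). The GAANNTTC match of Hsph1 lies outside the 250 bases printed above. GAANNTTC occurred in 3 of 10 chaperone genes that were not 2-fold higher (Chordc1, Hspd1 and Hspe1) and in 9.04% of the 27025 genes of the table. TTCNNGAA, added after the values had been seen, occurred in 2 of the 8, in 3 of the 10 that were not 2-fold higher and in 9.60% of all genes. A match describes letters and is not evidence of binding.

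Fos, Jun, Egr1 and Btg2, the early response genes that helped to choose the stretches, were detected in most cells of both. Fos, which pairs with Jun to form the factor AP-1, ran from 56.2 through a median of 936 to 2629 TPM in cells 55 to 86 and from 0.310 through 370 to 1070 TPM in cells 87 to 138. It was detected in all 32 and in 94.2% of the 52 cells, and the mean ratio was 1.13 on the log2 scale. Jun ran from 7.07 through 140 to 310 TPM and from 0 through 12.4 to 171 TPM, a log2 ratio of 2.49. The ranges of both genes overlapped, and 28 and 31 of the 32 cells lay above the other stretch's median. Egr1, a zinc finger factor of the early response, had medians of 400 and 216 TPM (means 527 ± 469 and 239 ± 190, log2 ratio 1.14). Btg2, an antiproliferative early gene, had medians of 390 and 126 TPM (means 450 ± 321 and 186 ± 204, 1.27).

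Among the other AP-1 genes, Fosb (171 ± 114 and 33.4 ± 34.9 TPM, log2 ratio 2.32) and Atf3 (48.2 ± 77.5 and 8.96 ± 26.0 TPM, 2.31) differed most. Atf3, a stress-induced member, also differed in presence, with 56.2% and 19.2% of cells. Junb had means of 17.8 and 7.61 TPM (1.13), and Jund, the family's steady member, 11.2 and 7.89 TPM (0.45). All 10 measured AP-1 genes of the list were above 0 on the log2 ratio, with a median of 1.13. At least 2-fold higher were 7 of them, beside 12.5% of all genes. Fos, Jun, Egr1, Btg2 and Fosb had their highest mean of all 8 stretches in cells 55 to 86. Their order elsewhere was not shared: the next mean of Fos was 526 TPM in the old cells 200 to 207, and that of Jun 25.0 TPM in cells 87 to 138.

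Of 25 measured early factors outside AP-1, 12 were at least 2-fold higher and 1 lower, beside 12.5% and 20.7% of all genes. Their median log2 ratio was 1.00, and 0.53 without cells 72, 75 and 112. It was 0.31 as the difference of mean log2(TPM + 1) and 0.27 with a pseudocount of 10. Klf6, an early zinc finger factor, was detected in 78.1% and 36.5% of cells (38.9 and 10.5 TPM, 1.79), and 71.2% of its TPM in cells 87 to 138 came from 1 cell. Ier2, an early nuclear protein, was at 18.7 and 6.80 TPM (1.34) and the orphan receptor Nr4a1 at 10.4 and 3.88 TPM (1.23). Its relative Nr4a2, which cAMP also induces, went the other way, at 9.87 and 16.8 TPM (-0.71). Crem, whose short form represses cAMP-driven transcription, was at 8.41 and 11.3 TPM (-0.39). Cells 55 to 86 therefore did not hold every gene of the early response at a higher level.

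Feedback genes, which switch early signalling off again, had 45 measured members, 21 at least 2-fold higher and 7 lower by as much. The shares of all genes were 12.5% and 20.7%, and the median log2 ratio of the list was 0.90. Dusp1, a phosphatase that inactivates stress-activated kinases, had medians of 150 and 41.7 TPM (means 234 ± 235 and 93.6 ± 119, 1.31). Nfkbia, the inhibitor of NF-κB, was at 44.9 and 10.6 TPM (1.99). Zfp36, which marks early transcripts for decay, was at 54.6 and 24.1 TPM (1.15), and at 0.51 on the log2 scale without cells 72, 75 and 112. Rgs2, a brake on G protein signalling that cAMP induces, had the largest ratio of the group (136 and 7.72 TPM, 3.97). Cell 72 alone held 47.4% of its TPM, but it was also detected in 65.6% against 21.2% of cells.

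The 7 lower feedback genes of 45 are a share below the 20.7% of all genes. Gadd45a, a growth arrest gene induced by DNA damage and starvation, ran from 0 through a median of 0 to 16.7 TPM in cells 55 to 86 and from 0 through 11.7 to 133 TPM in cells 87 to 138. It was detected in 28.1% and 73.1% of cells, with a log2 ratio of -2.87, and 1 of the 32 cells lay above the other median. Plk3, a stress-responsive kinase, was detected in 12.5% and 44.2% (2.86 and 23.6 TPM, -2.67). Rgs4, a relative of Rgs2, was detected in 15.6% and 51.9% (19.3 and 106 TPM, -2.39). Rgs2 and Rgs4 thus differed in opposite directions between the same cells.

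Over the 3 early response lists together, 40 of 80 measured genes were at least 2-fold higher and 8 lower by as much, beside 12.5% and 20.7% of all genes. Their median log2 ratio was 1.03. As the difference of mean log2(TPM + 1), which weights every cell equally, it was 0.32, against -0.22 for all genes. The count rests on a contrast that was selected on these genes, so nothing is read from its distance to the background.

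**Figure D2:**
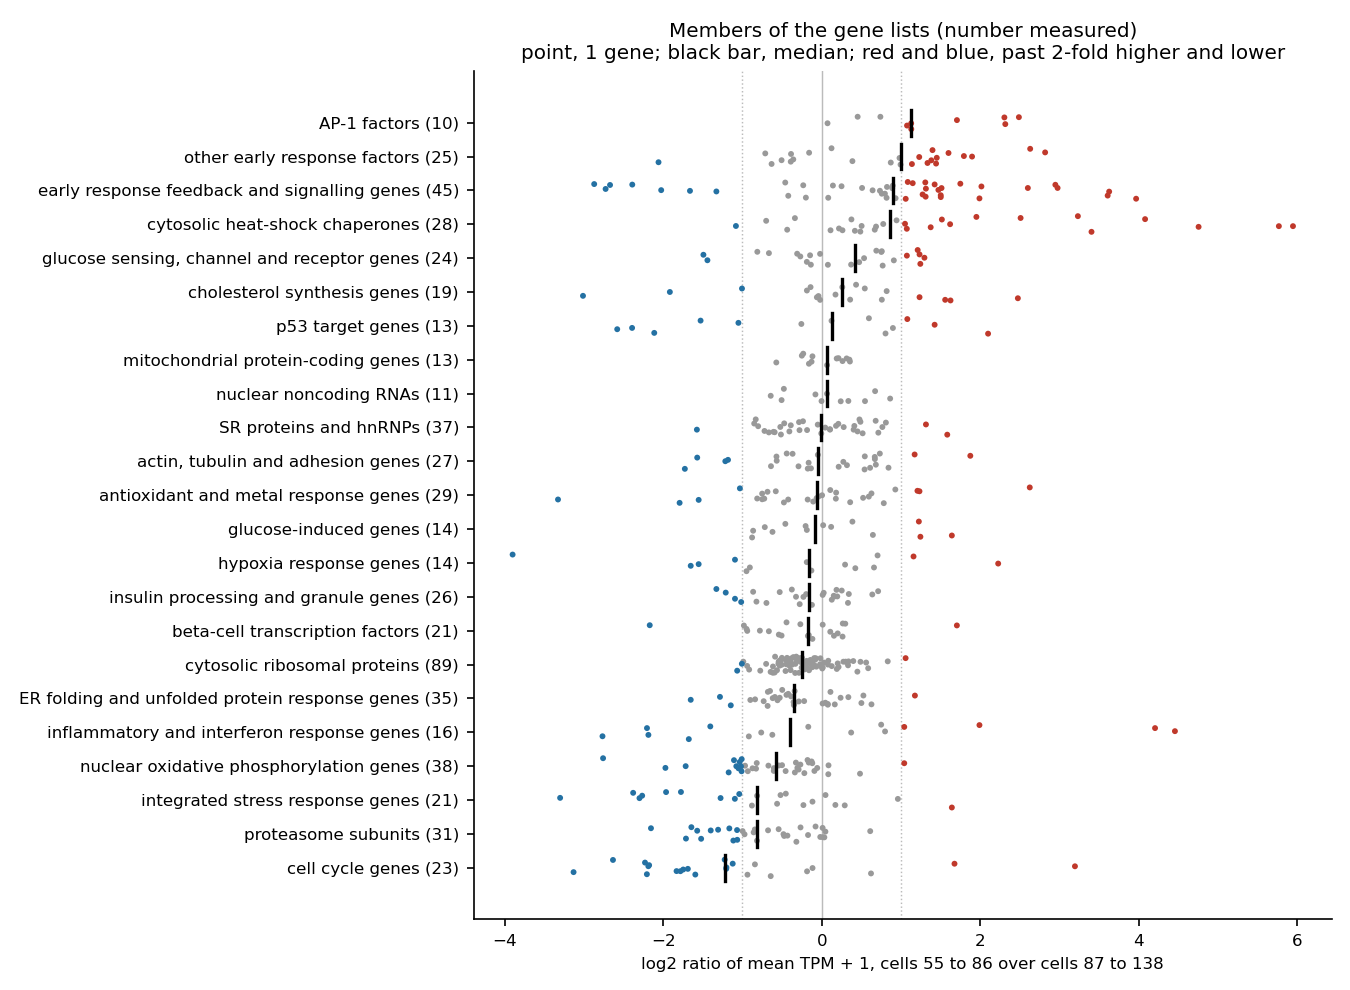
Each point is 1 measured gene of a list, placed by its log2 ratio of mean TPM + 1 (x axis); lists are ordered by their median (black bar), and the number of measured genes follows the name. Red and blue mark genes past 2-fold. The AP-1 list has the highest median, 1.13, and the cell cycle list the lowest, -1.22.

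The sums of early and of heat-shock transcripts had little relation to each other from cell to cell. The summed log2(TPM + 1) of Fos, Jun, Egr1 and Btg2 had a Spearman rho of 0.20 with that of the 4 chaperone genes over the 32 cells and of -0.00034 over the 52. Pairs of genes within a set were also weakly related over the 32 cells. Their rho was 0.06 for Dnajb1 with Hsph1, 0.13 for Hspa1a with Dnajb1, 0.10 for Fos with Btg2 and 0.36 for Fos with Jun. The low rho between the sums therefore does not set the programmes apart. Of the 52 cells, 31 had 1 and 15 had 0 of the 4 chaperone genes detected, so their rho could show little. The cells of a stretch may share an animal, chip or run, and no p is given. The early sum had a rho of 0.35 and 0.18 with detected genes, and the chaperone sum 0.15 and 0.19. The genes whose level ranked most like the early sum over the 32 cells were Nr4a1, Gnaq, Cyp51, Tuba1a and Csnk1a1, with rho from 0.61 to 0.63 among 2100 genes. Over the 52 cells their rho was 0.45, 0.07, -0.17, 0.40 and 0.13, so only Nr4a1 and Tuba1a stayed near it.

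**Figure D3:**
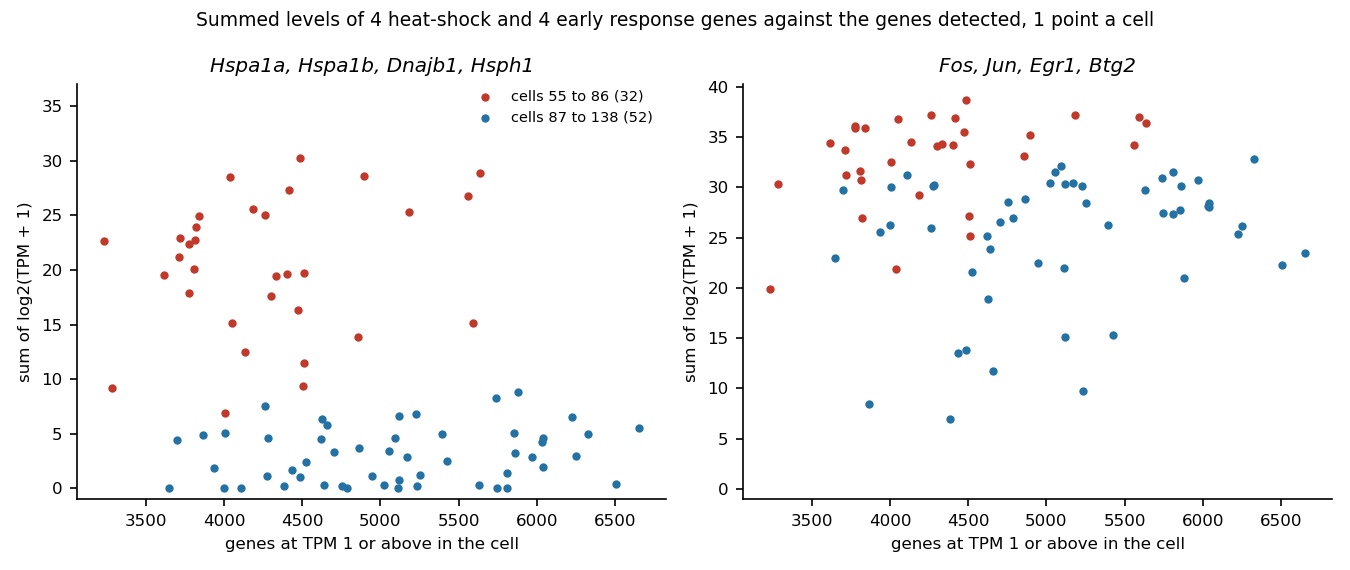
The x axis gives the genes detected in a cell and the y axis the sum of log2(TPM + 1) over 4 chaperone genes (left) or 4 early response genes (right), 1 point a cell, red for cells 55 to 86 and blue for cells 87 to 138. At equal numbers of detected genes the red cells lie above nearly all blue cells on the left, and overlap them on the right.

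Since fewer genes were detected per cell in the first stretch, the comparison was repeated on the 12 and 19 cells whose detected genes lay between the stretches' medians, 4226 and 5104.5. This alternative was added after the data had been seen. The log2 ratio was 5.69 for Hspa1a, 6.25 for Dnajb1, 3.27 for Hsph1, 1.04 for Fos, 2.60 for Jun, 1.64 for Btg2 and -3.11 for Gadd45a. The stretches were chosen on stimulus and dissociation response genes, Fos, Jun and Btg2 among them. The values of such genes in a part of the same cells, those of the chaperones included, therefore support nothing further. Nr4a2 had 0.06 there and Jund -0.76, so neither kept its direction.

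The cAMP response element is shown for 2 of the higher early genes because it is the known route by which cAMP and calcium reach such promoters. The windows are the 250 bases before the start site (RefSeq, GRCm38.p6), Fos at chr12:85473640-85473889 on the plus strand and Btg2 at chr1:134079156-134079405 on the minus strand, with TGACGT and TATAAA in capitals for Fos and TGACGTCA for Btg2.
Fos: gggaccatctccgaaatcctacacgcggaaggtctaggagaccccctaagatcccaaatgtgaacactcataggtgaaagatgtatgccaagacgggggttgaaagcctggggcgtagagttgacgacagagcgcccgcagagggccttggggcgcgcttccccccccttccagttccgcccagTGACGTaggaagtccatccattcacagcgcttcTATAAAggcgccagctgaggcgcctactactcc
Btg2: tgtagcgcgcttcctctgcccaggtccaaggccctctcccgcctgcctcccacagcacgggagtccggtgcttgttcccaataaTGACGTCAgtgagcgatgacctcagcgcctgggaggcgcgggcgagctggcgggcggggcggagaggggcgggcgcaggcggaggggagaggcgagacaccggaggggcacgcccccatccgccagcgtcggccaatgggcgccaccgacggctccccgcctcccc
The Fos matches begin 66 and 33 bases before the start site and the Btg2 match 166 bases before it. Of the 27 early genes at 10 TPM or above that were at least 2-fold higher, 20 were in the promoter table. TGACGT, searched on both strands and contained in TGACGTCA, occurred in 7 of these 20 (Atf3, Btg2, Dusp1, Errfi1, Fos, Mafg and Rgs2), in 3 of 9 early genes that were not 2-fold higher, and in 8.37% of all genes. The full TGACGTCA occurred in 3 of 20 and 0 of 9, against 2.03% of all genes. The Egr site GCGNGGGCG occurred in 6 of 20 and 1 of 9, against 6.27% of all genes, and also in 3 of the 8 higher chaperone genes. The AP-1 site TGANTCA occurred in 0 of 20 and 1 of 9, against 8.97%. The TGACGT shares of higher and other early genes were close, 35.0% and 33.3%.

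Other stress programmes did not follow the heat-shock genes. Of 35 unfolded protein response genes, which serve folding in the endoplasmic reticulum, 1 was at least 2-fold higher and 3 lower by as much. Both shares lay below the 12.5% and 20.7% of all genes, and the median log2 ratio was -0.36. The higher gene was Herpud1, a part of the machinery that removes misfolded protein from the reticulum (499 ± 515 and 220 ± 214 TPM, 1.18). Dnajb9, a chaperone of the reticulum, had medians of 44.6 and 178 TPM (means 95.3 ± 119 and 212 ± 148, -1.15). Ssr1, a subunit next to the translocation channel, was at 74.1 and 182 TPM (-1.28), and the oxidase Ero1a at 5.20 and 18.5 TPM (-1.65). Among the 12 and 19 cells of like detection Dnajb9, Ssr1 and Ero1a had -0.46, -0.76 and -0.82, and the list median was -0.02.

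Of 21 measured genes of the integrated stress response, which senses amino acid shortage and reticulum stress, 1 was higher and 9 were lower. The shares of all genes were 12.5% and 20.7%, and the median of the list was -0.82. The lower ones included Eif4ebp1, a brake on cap-dependent translation (4.59 and 28.1 TPM, -2.38), and Phgdh, of serine synthesis (1.44 and 23.1 TPM, -3.30), in few cells each. Ddit3, the stress factor CHOP, had medians of 51.0 and 10.9 TPM and a log2 ratio of 0.96. Txnip, a thioredoxin inhibitor that glucose induces, was the higher gene, detected in 87.5% and 61.5% of cells with medians of 41.5 and 5.16 TPM (means 152 ± 228 and 48.1 ± 119, 1.64). The median of 14 measured glucose-induced genes was -0.08, and 0.12 when centred on the median gene.

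Of 31 proteasome subunits, 26 had a log2 ratio below 0. At least 2-fold lower were 11 and higher 0, beside 20.7% and 12.5% of all genes, with a median of -0.82. A smaller share of cells 55 to 86 held 30 of the 31, as it did 8591 of the 12026 genes measured at that level. Psmc4, an ATPase of the regulatory cap, ran from 0 through a median of 1.36 to 180 TPM against 0.371 through 43.1 to 253 TPM (53.1% and 94.2% of cells, log2 ratio -2.16). Psma2, of the core ring, was at 62.9 and 199 TPM (-1.65), and Psmc3, another ATPase, at 10.0 and 35.2 TPM (-1.71). In the cells of like detection these 3 genes had -0.73, -0.48 and -0.12 and the list median -0.52, so the gap was smaller there.

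**Figure D4:**
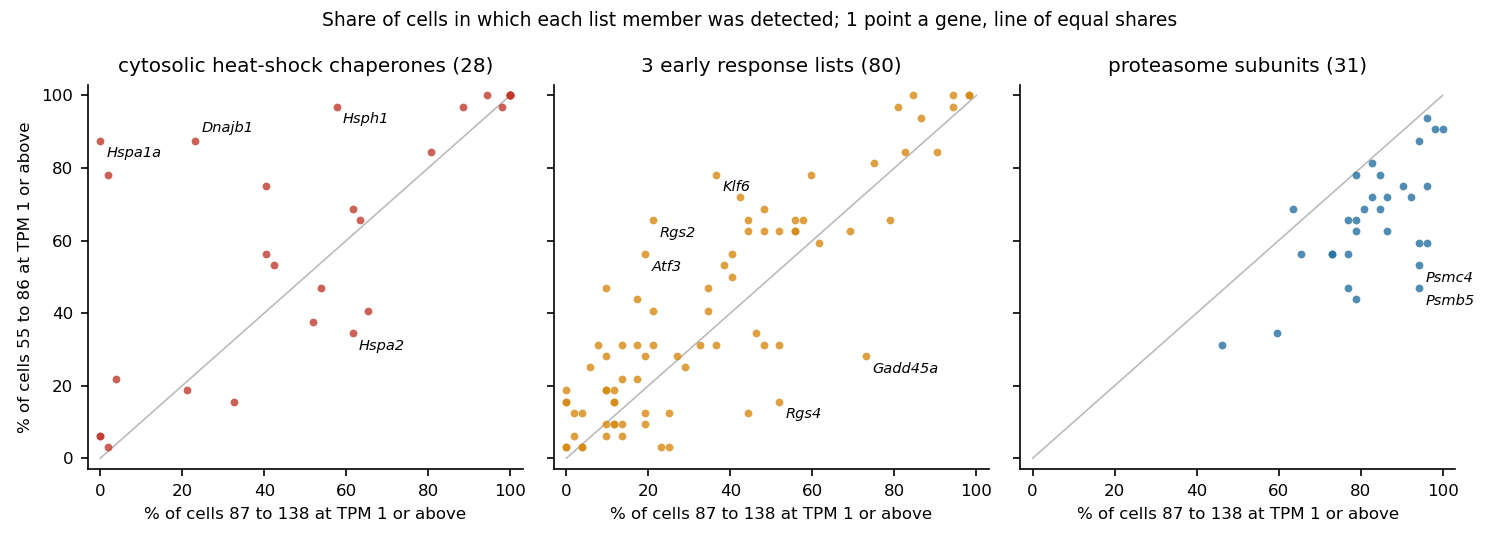
Each point is 1 measured gene of the chaperone list, the 3 early response lists or the proteasome list, with the percent of cells 87 to 138 (x axis) and of cells 55 to 86 (y axis) at TPM 1 or above; the line marks equal shares. Hspa1a, Dnajb1 and Hsph1 lie far above the line, Gadd45a and Rgs4 below it, and 30 of 31 proteasome genes below it.

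Nuclear-encoded respiratory chain and ATP synthase subunits, 38 in all, had a median of -0.57, 11 at least 2-fold lower and 1 higher, beside 20.7% and 12.5% of all genes, while the 13 protein-coding genes of the mitochondrial genome had 0.07 with none past 2-fold. Cox7c, a small subunit of cytochrome c oxidase, ran from 2.26 through a median of 27.6 to 248 TPM against 0 through 157 to 669 TPM. It was detected in 100% and 98.1% of cells, so its log2 ratio of -1.97 was a difference in level, and 1 of the 32 cells lay above the other median. It was -1.91 in the cells of like detection. There the nuclear list had a median of -0.29 and the mitochondrial coding list -0.23, so the lists were close. Ndufs1, a complex I subunit, was detected in 34.4% and 71.2% of cells (3.74 and 31.1 TPM, -2.76), and Cycs, which encodes cytochrome c, was at 9.65 and 34.0 TPM (-1.72). Uqcrc1, of complex III, was the higher gene by mean (59.6 and 28.4 TPM, 1.04) but was detected in fewer cells, 50.0% against 71.2%.

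Insulin transcripts were close in level, and the transcript of the peptide released with insulin was not. Ins2 was at 519982 ± 92195 and 467959 ± 71115 TPM (log2 ratio 0.15) and Ins1 at 55149 ± 17733 and 54679 ± 12890 TPM (0.01). Iapp, which encodes amylin, ran from 1227 through a median of 42746 to 71009 TPM in cells 55 to 86 and from 38005 through 80624 to 163074 TPM in cells 87 to 138. No cell of the first stretch reached the median of the second, and 37 of the 52 lay above the highest of the 32. The log2 ratio was -1.02, and between -1.15 and -0.67 under the other settings. By stretch mean Iapp was highest of 8 in cells 87 to 138 and had rank 6 in cells 55 to 86, below the 82650 TPM of the young cells 1 to 39 and above the 38554 TPM of cells 40 to 54.

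**Figure D5:**
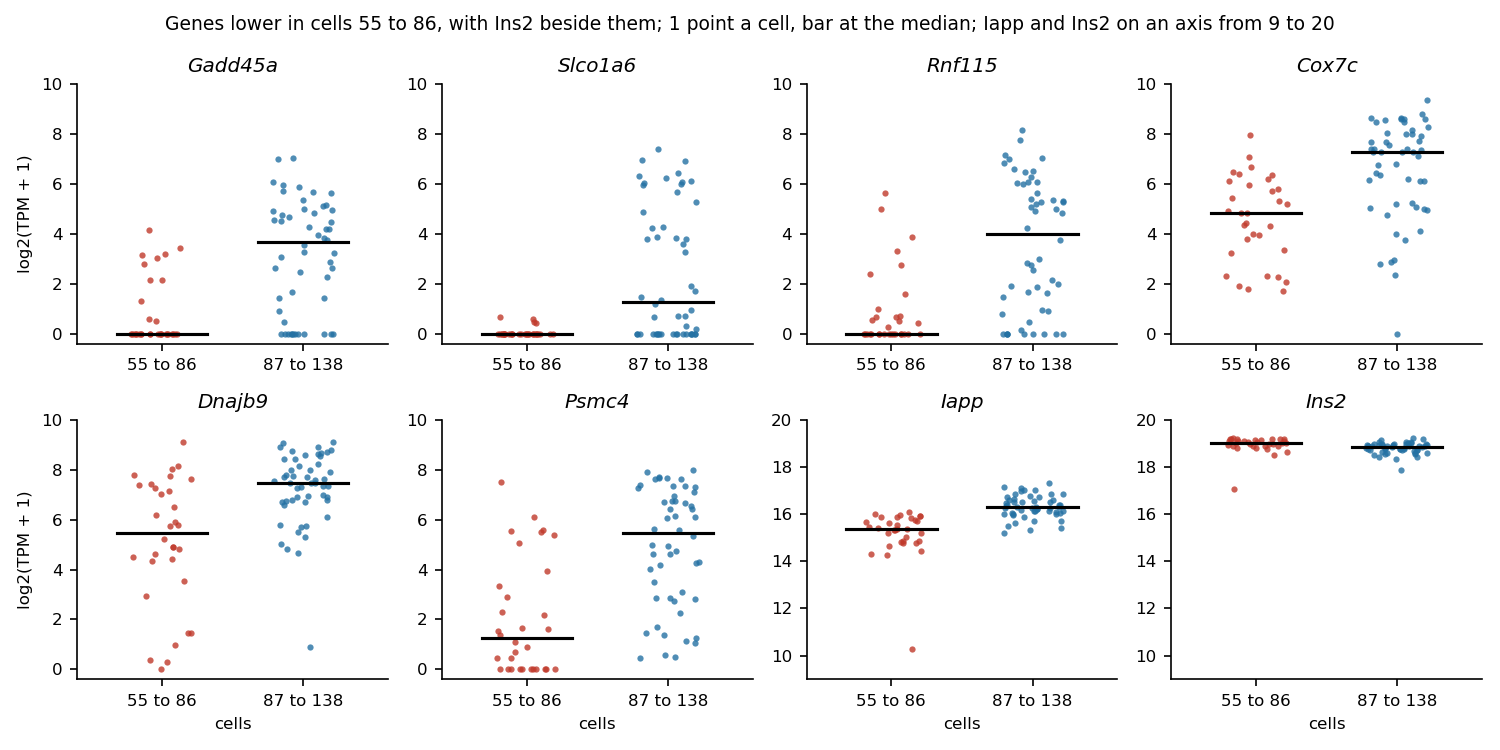
Each point is 1 cell, red for cells 55 to 86 and blue for cells 87 to 138, with log2(TPM + 1) on the y axis and a bar at the median; the axis of Iapp and Ins2 starts at 9. Gadd45a, Slco1a6 and Rnf115 are at 0 in most red cells, Cox7c and Iapp are shifted down in nearly all of them, and Ins2 overlaps.

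Of 26 measured granule and insulin processing genes, 4 were at least 2-fold lower and 0 higher, both shares below the 20.7% and 12.5% of all genes, with a median of -0.16 that was 0.04 when centred on the median gene. Chgb, a granule core protein, was at 192 and 350 TPM (-0.87), Ptprn, a granule membrane protein, at 30.8 and 66.8 TPM (-1.09), and Rab3a, of granule docking, at 10.1 and 24.7 TPM (-1.21). Rab3a had 0.24 in the cells of like detection, the opposite direction. The 21 beta-cell transcription factors measured had 1 gene higher and 1 lower, both below those shares, and their median was -0.17. Among 24 glucose sensing, channel and receptor genes, 5 were higher and 2 lower, beside 12.5% and 20.7% of all genes, with a median of 0.42. The higher ones included the incretin receptors Glp1r (21.7 and 8.22 TPM, 1.30) and Gipr (11.7 and 4.38 TPM, 1.24) and the adrenergic receptor Adra2a (24.3 and 9.75 TPM, 1.23), which raise and lower cAMP. Gipr had 0.33 in the cells of like detection and 0.88 as the difference of mean log2(TPM + 1), both under 2-fold. Slc2a2, the glucose transporter of mouse beta cells, had medians of 214 and 127 TPM (0.76). Ucn3, a peptide of mature beta cells, had medians of 673 and 369 TPM (0.64).

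The genes with the lowest ratios were mostly absent from the first stretch. Slco1a6, an organic anion transporter, was detected in 0 of 32 cells, which allows up to 9.38%, and in 51.9% of the 52, where it reached 167 TPM. Crybb3, a crystallin, was listed at 0 in all 32 cells and detected in 30.8% of the 52. Rnf115, a ubiquitin ligase, was detected in 21.9% and 73.1% (3.70 and 40.6 TPM, -3.14). In the young cells 1 to 39 Slco1a6 and Rnf115 had means of 19.8 and 35.4 TPM, near those of cells 87 to 138. Vrk1, a kinase of dividing cells, was detected in 25.0% and 75.0% of cells, and Rfc3, a clamp loader of DNA replication, in 3.12% and 34.6%. Cell cycle genes had the lowest list median, -1.22 over 23 genes. Of these 15 were lower and 2 higher, beside 20.7% and 12.5% of all genes. With every cell weighted equally, on the log2(TPM + 1) scale, the list had -0.31. Only 5 of the 23 reached a mean of 10 TPM in either stretch, and the median of those 5 was -0.12. In the cells of like detection the list had -0.39. Its place as the lowest list thus rested on genes of low level. Ccnd2, a D-type cyclin, had the highest mean of the list in both stretches and was detected in every cell, with medians of 239 and 137 TPM (0.62). Cdk4, a partner kinase of D-type cyclins that beta cells need for growth, had medians of 1.48 and 37.1 TPM (-1.75).

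Some genes outside the response lists were higher. Ldhb, a lactate dehydrogenase subunit, was detected in 43.8% and 13.5% of cells (35.6 and 2.20 TPM, 3.51). Idi1 (44.3 and 7.15 TPM, 2.48) and Hmgcs1 (79.5 and 26.3 TPM, 1.56), of cholesterol synthesis, were higher and Fdps, of the same pathway, lower (8.34 and 34.3 TPM, -1.92). That list had 4 higher and 3 lower of 19, beside 12.5% and 20.7% of all genes. Gcg, which encodes glucagon, had medians of 108 and 50.2 TPM (1.11), and Ttr, the carrier transthyretin, of 1176 and 559 TPM (1.00). The summed TPM of 8 alpha-cell markers had a median of 1351 (range 220 to 4319) in the first stretch and 674 (25.9 to 2180) in the second, and 6 and 5 of them had a mean of 1 TPM or above. Ttr is among these 8 markers, and its medians of 1176 and 559 TPM lie near those of the sum. The sum therefore mostly restates Ttr. The part of the 8 markers in the other results was not tested.

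Of the non-endocrine marker lists, only that of duct cells had a median sum above 1 TPM in either stretch. Its 7 genes summed to a median of 23.0 TPM (highest 414) in cells 55 to 86 and 62.3 TPM (highest 1203) in cells 87 to 138, with 2 and 3 of them at a mean of 1 TPM or above and 3 at 0 in all cells of each stretch. Its part in the results was not tested. The 9 macrophage markers summed to a median of 0 and 0.581 TPM, but to 36882 TPM in cell 72 and 22441 TPM in cell 112, 1 in each stretch. In cell 72 insulin took 15.7% of TPM, the lowest of the 32. Stellate and fibroblast markers reached 1403 TPM in cell 75 and at most 0.631 TPM in cells 87 to 138. Acinar and endothelial markers had medians of 0 in both. Cxcl2, Il1b, Nfe2l2 and Fth1 owed 67.4% to 99.9% of their TPM in cells 55 to 86 to 1 cell. Without cells 72, 75 and 112, an alternative added after the data had been seen, 450 genes were at least 2-fold higher and 826 lower, and the median of the 3 early response lists was 0.79. Hspa1a had 5.94, Jun 2.43, Fos 1.06 and Iapp -0.96, close to the values with those cells.

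The remaining lists had medians between -0.40 and 0.12. Cytosolic ribosomal proteins had -0.25 (89 genes), SR proteins and hnRNPs, which guide splicing, -0.01 (37), nuclear noncoding RNAs 0.07 (11), actin, tubulin and adhesion genes -0.05 (27), and antioxidant genes -0.06 (29). Hypoxia genes had -0.16 (14), p53 targets 0.12 (13) and inflammatory genes -0.40 (16). Centring on the median gene turned the sign of the splicing, actin, antioxidant and hypoxia lists, and also that of the beta-cell factors, to 0.03. The p53 and noncoding RNA lists turned when the highest and lowest cells were left out, and the cholesterol and mitochondrial coding lists in the cells of like detection, to -0.41 and -0.23. In those cells the hypoxia list had -1.12, the inflammatory list -1.11 and the beta-cell factors -0.72. The inflammatory list had 0.90 over its members at 10 TPM or above.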

How the data were processed

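Single islet cells were captured on a C1 chip and copied with SMARTer and Nextera XT kits, per the labels' protocols. The authors deposited 1 table of TPM values for 207 cells, scaled to 1000000 per cell. The build GRCm38 (mm10), CASAVA 1.8.2 and FastQC are named in the submitters' processing notes; the aligner, the counting program, the annotation and the strand handling were not given in the sources used here. TPM keeps no depth, and a gain in 1 abundant transcript lowers the others.

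Columns were matched to samples by title, and 0 were left unused. Of 44448 rows (NCBI Gene numbers), 39725 were named through a RefSeq table of GRCm38.p6; the other 4723 held a mean of 928 TPM per cell. No cell was left out, no doublet caller was run and no clustering was made; no 2 cells were identical. The members, the 23 gene lists, the 14 marker lists, the motifs and the rule for named genes were chosen with earlier results of these data known.

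The log2 ratio is log2((mean TPM of cells 55 to 86 + 1)/(mean TPM of cells 87 to 138 + 1)). Genes entered at a mean of 10 TPM or above in either stretch, and list members at 1. Named genes, 192 in all, were the 15 top and 15 bottom ratios, plus the 5 widest gaps in share of cells each way, among genes detected in at least 25% of cells with no cell over 33.3% of the TPM and the same sign in 3 measures. Added to these were the 3 top and 3 bottom genes per list, cell type markers and some genes chosen by name. Each stretch is 1 sample, so no p-value or standard error was computed, and SDs describe the spread between cells, which are not replicates. The ratio was tested on simulated data. Alternatives changed the summary, the pseudocount, the filter, the scaling and the cells used. Python 3.11.15, numpy 2.4.6, pandas 2.3.3, scipy 1.17.1 and matplotlib 3.10.9 were used.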

Additional observations from a re-analysis of the deposited data

How the results depend on the processing

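Counts of genes past 2-fold moved with the settings. Ratios were recomputed for a part of the genes given in the text, not for all 192 named genes. Of these 601 recomputed ratios, 505 stayed within 1.5-fold of the value given, 94 moved further, and 2 past 2-fold changed sign. The 592 higher genes became 72 with the difference of mean log2(TPM + 1), 248 with a pseudocount of 10 and 157 with trimmed means. They became 1509 with a minimum of 1 TPM or with none, and 1084 in the cells of like detection. After rescaling without insulin and mitochondrial genes they were 1730, of 8661 genes past the minimum in place of 4861. The 829 lower genes became 293 with a pseudocount of 10, 2487 with a minimum of 1 TPM or with none, and 1346 after rescaling. Under rescaling 56.2% of the calls were higher genes and the median gene had a log2 ratio of 0.09. The median of the 3 early response lists was 0.32 with the difference of mean log2(TPM + 1) and 0.35 with a pseudocount of 10. For these the cause was not tested. Of these, Uqcrc1 turned to -0.26 with the difference of mean log2(TPM + 1) and Rab3a to 0.24 in the cells of like detection. Hspa1a lay between 2.84 and 9.04, Jun between 2.15 and 3.25 and Cox7c between -2.11 and -1.72 over all settings that gave them a value.

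The planned restriction to the shared middle range of detected genes was not run, since the lower quartile of cells 87 to 138 (4514) lay above the upper quartile of cells 55 to 86 (4507.75). No paired analysis was possible because each stretch is 1 sample, and there was no replicate to leave out. The depth behind a TPM value is unknown, so the share of cells with a low gene has no known detection limit.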
